A study of Homo sapiens with 6 samples.

Results

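The partner genes of TRIM28 in heterochromatin were read in T24 cells after TRIM28 was silenced. The set holds 10 genes chosen by name, namely SETDB1, ATF7IP, CBX1, CBX3, CBX5, CHD3, TASOR, MPHOSPH8, PPHLN1 and MORC2, out of 78932 genes in the deposited count table. All 10 are in the table, and all 10 passed the count filter that kept 18474 genes for testing. T24 is an established line of human urothelial carcinoma. Poly(A) RNA was sequenced from 3 libraries of T24 cells given a control siRNA (siNC) and from 3 given siRNA against TRIM28 (siTRIM28), with no other agent named. The library titles number the replicates of a group from 1 to 3 and name no batch, and all 6 were taken as 1 batch. Neither the time after transfection nor the TRIM28 siRNA used for these libraries is given in the sources used here.

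TRIM28 is a scaffold without a DNA-binding domain of its own. Zinc-finger proteins with a KRAB domain recruit it to retrotransposons and other loci, where it brings in the histone methyltransferase SETDB1 and HP1 proteins, so that histone H3 is methylated on lysine 9 and the site is silenced. The HUSH complex (TASOR, MPHOSPH8 and PPHLN1) spreads and maintains the same mark over young retroelements and intronless transgenes, and works with SETDB1 and with the ATPase MORC2. The measurements here are of messenger RNA only.

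Within a gene, levels are given as CPM, read counts per 1000000 after TMM scaling. TRIM28 itself, the targeted gene, had 104 ± 4.09 CPM in siNC and 8.87 ± 0.658 CPM in siTRIM28 (mean ± SD, n = 3). The log2 fold change (log2FC, siTRIM28 against siNC) was -3.54, with a standard error (SE) of 0.0723 and an adjusted p of 1.03e-10. Unless another tool is named, adjusted p values come from edgeR (quasi-likelihood, Benjamini-Hochberg over 18474 genes), and a gene was called when its value was under 0.05. Total counts ran from 11712623 to 14018052 per library, and the 10 genes had between 289 and 6740 counts in every library. The replicates of a group were not equally close. siNC replicates 1 and 2 differed little more than sampling noise (chi-square of 1.08 per degree of freedom), as did siTRIM28 replicates 2 and 3 (1.24), against values from 4.60 to 6.99 for the other pairs within a group. The main fit counts the libraries of each close pair as separate, so 1 alternative fit summed each pair. Of 13 urothelial and epithelial marker genes, 11 lay at or under 1 RPKM in siNC, among them GATA3, KRT5, EPCAM and the uroplakins UPK1B, UPK2 and UPK3A, while KRT18 (27.8 RPKM) and KRT8 (14.9 RPKM) were expressed. RPKM is the read count per 1000 bases of gene length and 1000000 counts of the library. The summed RPKM of these 13 markers ran from 43.7 to 45.4 in siNC and from 48.7 to 48.8 in siTRIM28. All 6 markers of leukocytes, endothelium, fibroblasts and muscle lay at or under 1 RPKM in siNC, with sums from 0.137 to 0.216 in siNC and from 0.410 to 0.653 in siTRIM28. Most of the latter difference was COL1A1, at 0.103 RPKM in siNC and 0.365 RPKM in siTRIM28 (log2FC 1.78, adjusted p = 0.000221), while CD3E had no count in any library. Both sums were higher in siTRIM28, and their part in the results below was not tested.

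Of the 10 genes, 4 were called lower in siTRIM28, where 20.5% of all genes tested were. These were MORC2, CHD3, TASOR and CBX1. None was called higher, where 21.3% of all genes tested were, and none rose at an unadjusted p under 0.05 either. DESeq2 and limma-voom also called 0 higher, but CBX3 was called higher without a count filter, with a replicate block and without siTRIM28 replicate 2. In 6 of the 10 the CPM of the groups did not overlap, all of them lower, against 52% of all genes tested, counted in either direction. The median log2FC of the 10 was -0.14, beside 0.02 for all genes tested. The changes were small, from 0.14 to 0.35 on the log2 scale among the genes called, and only MORC2 and CHD3 were called under every alternative that was run. With DESeq2, upper-quartile or total-count scaling the count of lower genes was 2.

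**Figure D1:**
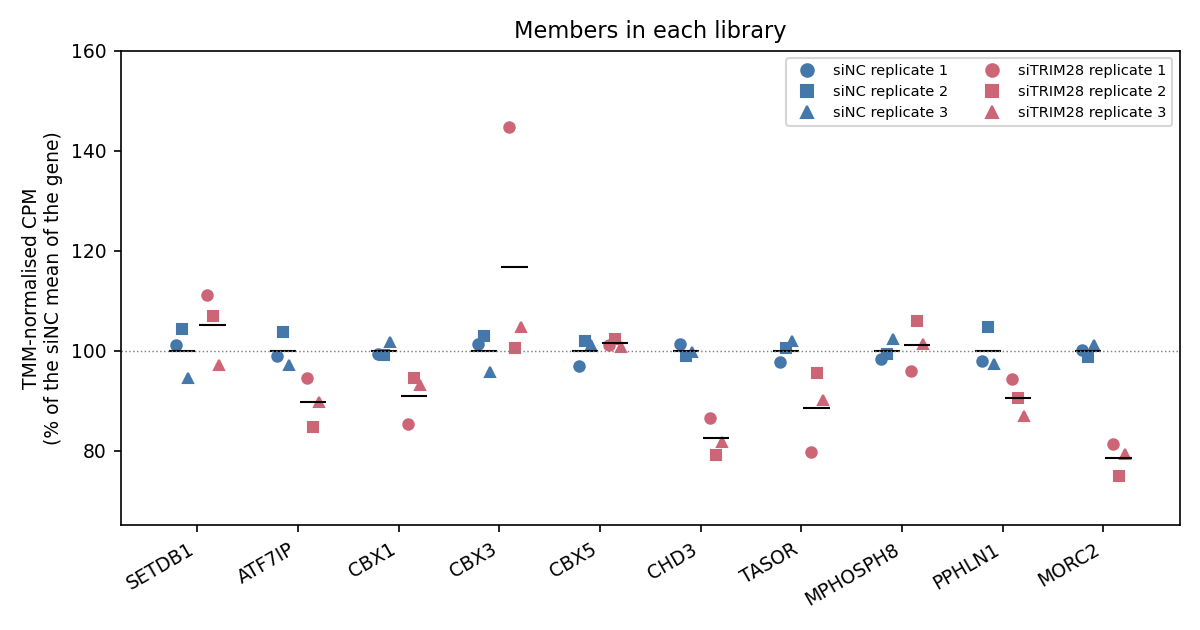
TMM-normalised CPM of each gene in each library, as percent of the siNC mean of that gene (vertical axis), with 1 point per library and a line at each group mean. MORC2 and CHD3 sit low in all 3 siTRIM28 libraries, whereas CBX3 is high in siTRIM28 replicate 1 only.

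The promoter sequences of MORC2 and CHD3 are shown because these genes carried the lower values that held under all alternatives, and the stretch between CBX5 and HNRNPA1 because its flanking genes are compared below. All are from RefSeq (GRCh38.p14, 5′ to 3′ on the strand of the named gene), a set in which all 10 genes have at least 1 window. Capitals mark GGGCGG (the GC box) and CCAAT, searched on both strands. MORC2 is given for the 250 bases before its start (chr22:30968775-30969024, minus strand), which lie between MORC2 and TUG1. CHD3 is given for the 250 bases before its RefSeq start (chr17:7888539-7888788, plus strand), which lie downstream of the gene start in the count table and overlap no exon of GENCODE v29. CBX5 is given for the 70 bases between its start and that of HNRNPA1 (chr12:54280123-54280192, minus strand).
MORC2: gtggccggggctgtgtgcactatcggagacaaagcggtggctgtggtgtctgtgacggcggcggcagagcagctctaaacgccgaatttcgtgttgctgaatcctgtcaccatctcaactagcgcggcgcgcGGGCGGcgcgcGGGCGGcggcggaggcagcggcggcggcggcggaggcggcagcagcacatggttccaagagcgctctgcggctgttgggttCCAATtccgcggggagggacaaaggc
CHD3: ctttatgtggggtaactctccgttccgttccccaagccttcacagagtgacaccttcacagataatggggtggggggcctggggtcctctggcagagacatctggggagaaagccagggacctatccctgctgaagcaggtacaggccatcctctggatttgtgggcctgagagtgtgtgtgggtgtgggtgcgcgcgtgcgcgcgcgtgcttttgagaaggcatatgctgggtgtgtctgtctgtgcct
CBX5: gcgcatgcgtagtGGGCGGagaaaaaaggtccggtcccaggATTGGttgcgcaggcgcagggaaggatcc
The MORC2 window is a CpG-rich promoter with 31 CpG dinucleotides, 2 GC boxes and 1 CCAAT. The CHD3 window has 9 CpG dinucleotides and neither motif. The short CBX5 stretch has 1 GC box and 1 CCAAT. Over 35116 RefSeq windows of 250 bases, the median number of CpG dinucleotides was 11, GGGCGG was found in 42.6% and CCAAT in 32.0%. No such share was computed for windows of 70 bases. These matches describe the letters only.

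SETDB1 and ATF7IP form the methyltransferase module, in which ATF7IP binds SETDB1 and keeps it stable and nuclear. SETDB1 (chromosome 1, 150926263 to 150964744) had 25.4, 26.2 and 23.8 CPM in siNC and 27.9, 26.9 and 24.4 CPM in siTRIM28. The groups overlapped, and the log2FC was 0.07 with a 95% interval from -0.09 to 0.23 (adjusted p = 0.464). It was 0.03 without siTRIM28 replicate 1 and also without siNC replicate 3, and 0.11 without siTRIM28 replicate 3. ATF7IP (chromosome 12, 14365676 to 14498247) had 54.9, 57.5 and 53.9 CPM in siNC and 52.4, 47.0 and 49.7 CPM in siTRIM28. Every siTRIM28 library lay under every siNC library, but the log2FC of -0.16 was not called (SE 0.0613, adjusted p = 0.0596). limma-voom called it at an adjusted p of 0.0486. Without siTRIM28 replicate 1 it was -0.20 and was called (adjusted p = 0.0122). The log2 ratio of ATF7IP to SETDB1 went from 1.14 ± 0.04 to 0.91 ± 0.11 (mean ± SD, n = 3), with no overlap of the groups (exact two-sided permutation test, p = 0.1, adjusted p = 0.167 over 10 ratios), and 0.1 is the smallest p that 3 libraries against 3 allow. The 10 ratios were chosen after the values were seen, so the p values given for them here and below are descriptive only. SETDB1 overlaps CERS2 on the other strand over 4162 bases, and CERS2 had a log2FC of 0.04 (adjusted p = 0.536).

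The HP1 proteins read the methylated lysine and compact the chromatin, CBX5 being HP1 alpha, CBX1 HP1 beta and CBX3 HP1 gamma. CBX1 (chromosome 17, 48070052 to 48101302) had 475, 474 and 487 CPM in siNC and 408, 453 and 445 CPM in siTRIM28. All 3 siTRIM28 libraries lay under siNC, with replicate 1 lowest, and the log2FC was -0.14 (SE 0.0444, adjusted p = 0.0274). Without siTRIM28 replicate 1 it was -0.09 (adjusted p = 0.0128). The call was lost without any 1 of the siNC replicates (adjusted p = 0.0752, 0.0695 and 0.0968 without replicates 1, 2 and 3) and with DESeq2 (adjusted p = 0.0809).

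CBX3 (chromosome 7, 26201162 to 26213356) had 337, 342 and 319 CPM in siNC and 481, 335 and 349 CPM in siTRIM28. Only siTRIM28 replicate 1 stood apart from the siNC range by a wide margin. The log2FC of 0.22 (95% interval from -0.01 to 0.46) was not called (adjusted p = 0.119), and it was 0.04 without siTRIM28 replicate 1 (adjusted p = 0.413). CBX3 was called when no count filter was applied (log2FC 0.22, adjusted p = 1.82e-05). In that library CBX3 was 1.38 times as high as in the higher of the other siTRIM28 replicates, a ratio reached by 2.92% of the 12828 genes tested with a mean of at least 50 counts. Without siTRIM28 replicate 2 CBX3 was called, with a log2FC of 0.32 (adjusted p = 0.0314). CBX5 (chromosome 12, 54230942 to 54280122) had 127, 134 and 133 CPM in siNC and 133, 134 and 132 CPM in siTRIM28. Its groups overlapped, with a log2FC of 0.02 and a 95% interval from -0.07 to 0.11.

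Per length, CBX1 made up most of the HP1 transcripts. Its share of the summed RPKM of the 3 genes was 66.6, 66.2 and 68.2% in siNC and 55.3, 65.6 and 64.4% in siTRIM28. CBX3 took 29.8, 30.1 and 28.1% in siNC and 41.1, 30.5 and 31.7% in siTRIM28, and CBX5 between 3.61 and 3.94% in all 6 libraries. The CBX1 share was lower in every siTRIM28 library and that of CBX3 higher, with mean differences of -5.22 and 5.12 percentage points (exact two-sided permutation test, p = 0.1 for each, the smallest possible). The shares of a library add up to the whole and that of CBX5 hardly varied, so these differences describe 1 shift. Most of this came from 1 library, since without siTRIM28 replicate 1 the differences were -1.99 and 1.80 points. The log2 ratio of CBX3 to CBX1 was -0.52 ± 0.08 in siNC and -0.18 ± 0.37 in siTRIM28, and siTRIM28 replicate 1 was the one library in which it was above 0. The CBX5 share differed by 0.101 points (exact permutation test, p = 0.4). Annotated processed copies of these genes (10 of CBX3, 5 of CBX1 and 1 of CBX5) held reads amounting to at most 0.665% of those of the parent gene in any library. How the counting treated reads that match a gene and its copies is not stated.

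**Figure D2:**
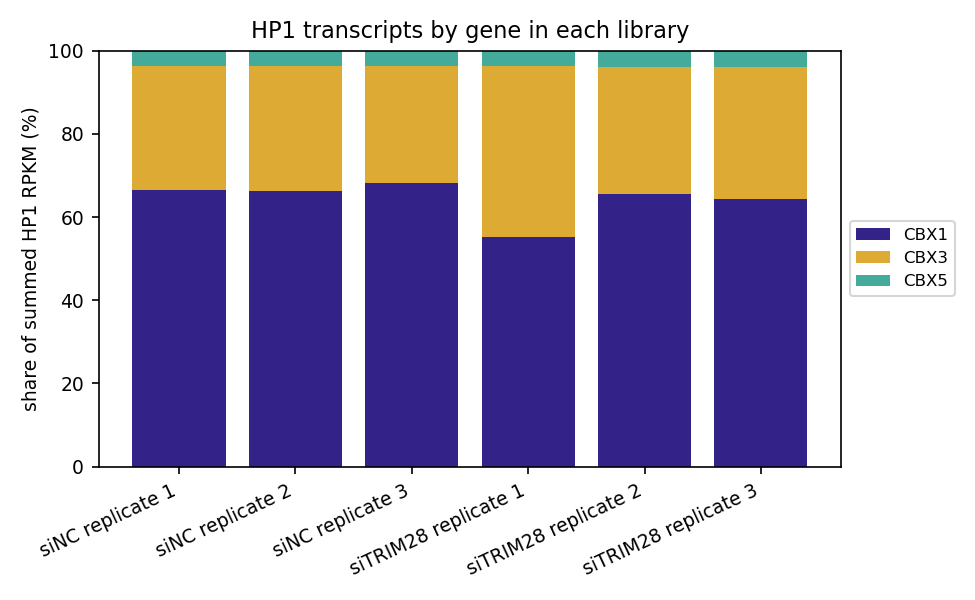
Share of each HP1 gene in the summed RPKM of CBX1, CBX3 and CBX5 (vertical axis, percent), with 1 bar per library. The CBX3 share lies between 28.1 and 31.7% in 5 libraries and is 41.1% in siTRIM28 replicate 1.

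CHD3 is an ATP-dependent helicase of the NuRD corepressor and binds the PHD finger and bromodomain of TRIM28. CHD3 (chromosome 17, 7884796 to 7912755) had 449, 438 and 441 CPM in siNC and 383, 350 and 362 CPM in siTRIM28. The groups were well apart, with a log2FC of -0.28 (SE 0.0418, adjusted p = 0.000250), a fall of 17.5%. With siNC replicates 1 and 2 summed, and siTRIM28 replicates 2 and 3 summed, the log2FC was -0.26 (adjusted p = 0.0132). CHD4, the other main helicase of NuRD, had 656 ± 11.2 CPM in siNC and 697 ± 12.6 CPM in siTRIM28 and was not called (log2FC 0.09, adjusted p = 0.0661). The log2 ratio of CHD3 to CHD4 went from -0.57 ± 0.04 to -0.93 ± 0.06, and the groups did not overlap (exact two-sided permutation test, p = 0.1, adjusted p = 0.167 over 10 ratios).

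Among the HUSH subunits, TASOR is the scaffold that holds the complex together. TASOR (chromosome 3, 56620132 to 56683237) had 123, 126 and 128 CPM in siNC and 100.1, 120.0 and 113 CPM in siTRIM28. Every siTRIM28 library lay under the lowest siNC library, replicate 1 by most and replicate 2 by little. The log2FC was -0.18 (SE 0.0621, adjusted p = 0.0374). Without siTRIM28 replicate 1 it was -0.11 (adjusted p = 0.0472), and without siNC replicates 1, 2 and 3 or siTRIM28 replicate 3 the call was lost (adjusted p = 0.0750, 0.102, 0.107 and 0.0642). It was also lost with DESeq2 (adjusted p = 0.0696).

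MPHOSPH8 is the subunit whose chromodomain binds methylated lysine 9 of histone H3. MPHOSPH8 (chromosome 13, 19633659 to 19673441) had 111, 112 and 116 CPM in siNC and 108, 120 and 114 CPM in siTRIM28. These overlapped, with a log2FC of 0.01 and a 95% interval from -0.09 to 0.12 (adjusted p = 0.839). PPHLN1, which encodes periphilin, an RNA-binding subunit, lies on chromosome 12 from 42238447 to 42459715. It had 52.3, 55.9 and 52.0 CPM in siNC and 50.4, 48.3 and 46.4 CPM in siTRIM28. The groups did not overlap, but the log2FC of -0.14 was not called (SE 0.0603, adjusted p = 0.0773). Without siTRIM28 replicate 1 it was -0.17 and was called (adjusted p = 0.0267).

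Within HUSH, the balance of transcripts was described by ratios to MPHOSPH8. The log2 ratio of TASOR to MPHOSPH8 was 0.15 ± 0.02 in siNC and -0.04 ± 0.07 in siTRIM28, without overlap (exact two-sided permutation test, p = 0.1, adjusted p = 0.167). That of PPHLN1 to MPHOSPH8 was -1.08 ± 0.08 and -1.24 ± 0.12, with overlap (exact permutation test, p = 0.2, adjusted p = 0.25).

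MORC2 is a GHKL-type ATPase that HUSH recruits to compact its targets. MORC2 (chromosome 22, 30925130 to 30968774) had 55.5, 54.8 and 56.1 CPM in siNC and 45.1, 41.6 and 43.9 CPM in siTRIM28. Replicates were tight and the groups far apart, and the log2FC of -0.35 was the largest of the 10 in size (SE 0.0577, adjusted p = 0.000494), a fall of 21.5%. Leaving out single libraries gave values between -0.38 and -0.32. With the same libraries summed as for CHD3, the log2FC was -0.34 (adjusted p = 0.0101).

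Levels between the genes were compared per length, as RPKM. In siNC, CBX1 was highest at 156 ± 1.18 RPKM (mean ± SD, n = 3), followed by CBX3 at 68.1 ± 3.05 and CHD3 at 39.8 ± 0.692. TRIM28 stood at 23.9 ± 0.773 RPKM and MPHOSPH8 just under it at 22.8 ± 0.293. TASOR followed at 12.6 ± 0.179 RPKM, CBX5 at 8.65 ± 0.203 and MORC2 at 5.08 ± 0.0462. At the low end were PPHLN1 at 4.35 ± 0.191, ATF7IP at 4.18 ± 0.160 and SETDB1 at 3.38 ± 0.191 RPKM. In this order PPHLN1 and ATF7IP were the only neighbours whose siNC libraries overlapped.

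SETDB1, the methyltransferase among the 10, was thus the lowest of them per length in siNC, at 0.141 of the TRIM28 level. In siTRIM28 the order of the 10 was the same, but MORC2 (4.04 ± 0.170 RPKM), PPHLN1 (3.99 ± 0.141), ATF7IP (3.79 ± 0.204) and SETDB1 (3.59 ± 0.223) each overlapped the next. TRIM28, at 2.07 ± 0.158 RPKM, was then lower than all 10, and SETDB1 stood at 1.74 times its level. The gene lengths in the table run from 3044 bases for CBX1 to 15038 for CBX5, and a long annotated exon that is little used lowers the RPKM of a gene.

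**Figure D3:**
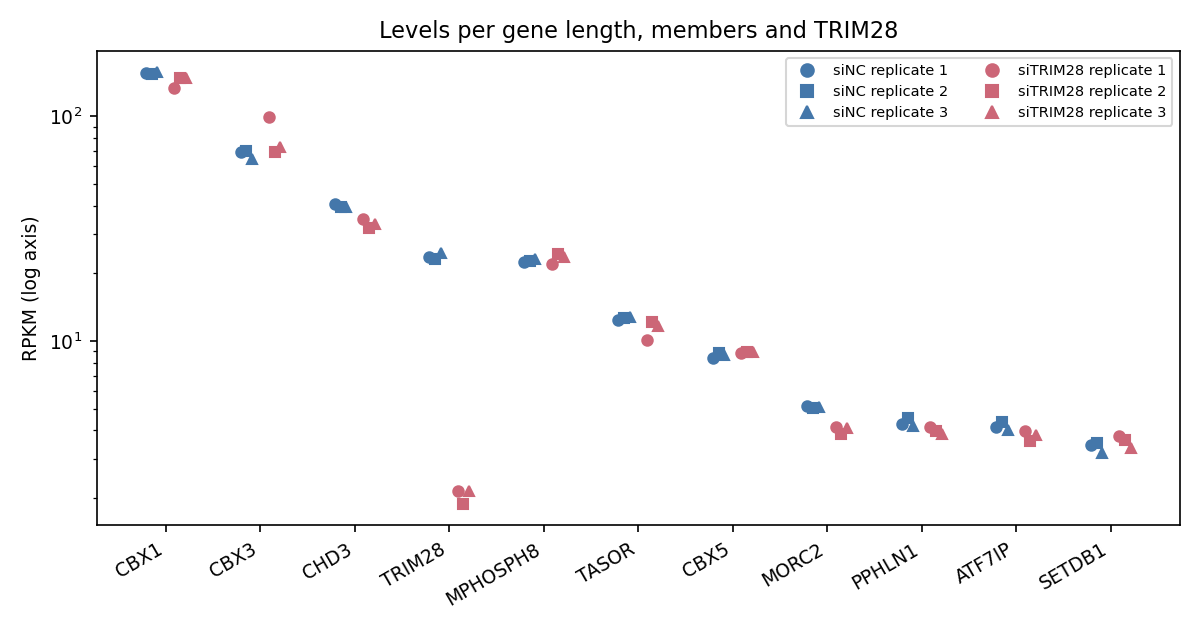
RPKM of each gene and of TRIM28 (vertical log axis), ordered by the siNC mean, with 1 point per library. CBX1 is highest, between 134 and 157 RPKM, and TRIM28 is the only gene that changes place in the order, from 23.9 RPKM in siNC to 2.07 RPKM in siTRIM28.

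By the starts in the count table, 5 of these genes start within 1000 bases of a tested gene on the other strand. CBX5 starts 71 bases from HNRNPA1, which encodes an abundant splicing factor, across the stretch printed above. HNRNPA1 had 6241, 6396 and 6587 CPM in siNC and 4622, 5272 and 5135 CPM in siTRIM28, a log2FC of -0.36 (SE 0.0462, adjusted p = 8.21e-05), while CBX5 was not called. The log2 ratio of CBX5 to HNRNPA1 was -5.61 ± 0.03 in siNC and -5.23 ± 0.10 in siTRIM28, without overlap (exact two-sided permutation test, p = 0.1, adjusted p = 0.167 over 10 ratios). MORC2 starts 471 bases from TUG1, a long noncoding RNA. TUG1 had 48.3, 49.7 and 48.2 CPM in siNC and 55.0, 65.8 and 59.1 CPM in siTRIM28, a log2FC of 0.30 (SE 0.0692, adjusted p = 0.00467). MORC2 and TUG1 therefore moved in opposite directions, and their log2 ratio went from 0.19 ± 0.04 to -0.46 ± 0.19 (exact two-sided permutation test, p = 0.1, adjusted p = 0.167).

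The other pairs did not separate. CBX3 starts 416 bases from HNRNPA2B1, which had 2506 ± 25.2 CPM in siNC and 2873 ± 67.8 CPM in siTRIM28 and was called higher (log2FC 0.20, adjusted p = 0.000433). The mean log2 ratio of the pair differed by 0.01 (exact permutation test, p = 1), but its spread was -2.913 ± 0.059 in siNC and -2.907 ± 0.268 in siTRIM28. The ratio of siTRIM28 replicate 1 (-2.604) lay above every siNC library, and those of replicates 2 (-3.114) and 3 (-3.004) lay below every siNC library. The near-equal means therefore do not show that the pair moved together. CHD3 and NAA38 start 413 bases apart and overlap by 414 bases, and NAA38 had a log2FC of 0.03 (adjusted p = 0.891), which was -0.20 without siTRIM28 replicate 1 (adjusted p = 0.0260). By its start in the count table, PPHLN1 lies 199 bases from YAF2, which had a log2FC of -0.19 and was not called (adjusted p = 0.0720). YAF2 was called without siTRIM28 replicate 2 (-0.25, adjusted p = 0.0228), and its log2FC was -0.12 without siTRIM28 replicate 1. The RefSeq starts of PPHLN1 lie further downstream, at 42326167 and 42331798, the former next to the start of ZCRB1 on the other strand (42326257), and ZCRB1 was called lower, as given below. The log2 ratios of CHD3 to NAA38 and of PPHLN1 to YAF2 overlapped between the groups (exact permutation test, p = 0.2 and 0.8).

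**Figure D4:**
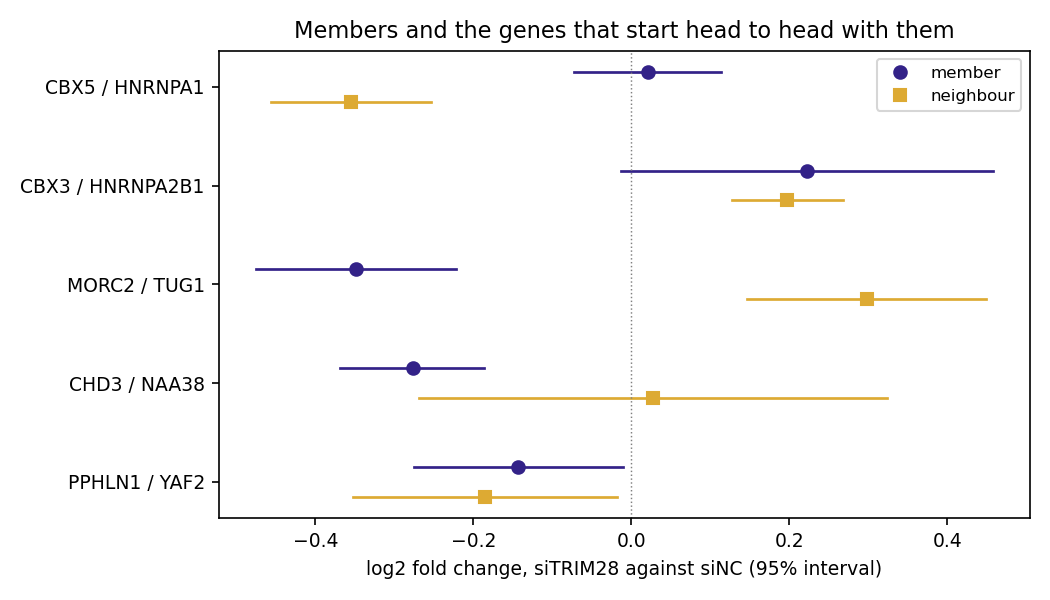
Log2FC of 5 genes (circles) and of the gene that starts head to head with each (squares), siTRIM28 against siNC, with 95% intervals from edgeR (horizontal axis). Starts are those in the count table. The intervals of MORC2 and TUG1 lie on opposite sides of 0, those of CBX3 and HNRNPA2B1 overlap.

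Overlapping genes could share reads with SETDB1, CBX5, CHD3, TASOR and PPHLN1, since the labels name a stranded library kit but the strand setting of the counting is not stated. PPHLN1 spans ZCRB1 (335 ± 5.20 CPM in siNC and 250 ± 12.5 CPM in siTRIM28, log2FC -0.43, adjusted p = 1.48e-05) and the end of PRICKLE1 (log2FC -0.63, adjusted p = 0.000283), both on the other strand. TASOR overlaps CCDC66 by 1677 bases on the other strand, with a log2FC of 0.10 (adjusted p = 0.352), which ran from 0.05 without siNC replicate 1 to 0.18 without siNC replicate 3. Within CBX5, on its own strand, lies ENSG00000289154, which has no symbol in the table and had 4.25 ± 0.858 CPM in siNC and 12.6 ± 1.03 CPM in siTRIM28 (log2FC 1.56, adjusted p = 4.6e-06). Among unnamed genes, ENSG00000257376 and ENSG00000257674 lie within PPHLN1 and were not called, and ENSG00000257225 overlaps its end by 350 bases, with a log2FC of -0.54 (adjusted p = 0.0385). That call was lost with DESeq2 (0.0881) and without any 1 library except siNC replicate 3, with adjusted p values from 0.0508 to 0.160. The part of these overlaps in the values of the 5 genes was not tested.

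A list of 24 other heterochromatin genes was read beside the 10. Of these, 23 passed the count filter (MORC1 did not), 4 were called lower, 6 were called higher and 13 were not called, with a median log2FC of 0.06. Over all genes tested, 20.5% were called lower and 21.3% higher, so these counts lie near the background. EHMT2 and EHMT1, the partner enzymes that methylate lysine 9 of histone H3 in euchromatin, both fell. EHMT2 had 59.8, 59.8 and 57.3 CPM in siNC and 31.1, 37.2 and 35.0 CPM in siTRIM28 (log2FC -0.78, SE 0.0714, adjusted p = 5.32e-06). EHMT1 had 74.9 ± 2.29 CPM in siNC and 56.3 ± 0.990 CPM in siTRIM28 (log2FC -0.41, adjusted p = 6.82e-05). LRIF1, an HP1-binding protein of the inactive X chromosome, had 60.5 ± 4.84 CPM in siNC and 39.9 ± 2.88 CPM in siTRIM28 (log2FC -0.60, adjusted p = 6.70e-05). ADNP, which joins CHD4 and HP1 in a repressor complex, had a log2FC of -0.17 (adjusted p = 0.0169), a call lost with DESeq2 (0.0571), with upper-quartile scaling (0.0501), with the closest libraries summed (0.0766) and without siNC replicate 1 (0.0648).

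Among the higher genes, ATRX, a helicase that works with the chaperone DAXX, had 284, 292 and 291 CPM in siNC and 423, 438 and 412 CPM in siTRIM28 (log2FC 0.56, SE 0.0393, adjusted p = 6.80e-07). DAXX itself was not called (log2FC 0.06, adjusted p = 0.363). ATF7IP2, the paralogue of ATF7IP, had 6.68 ± 0.374 CPM in siNC and 9.34 ± 1.04 CPM in siTRIM28 (log2FC 0.49, adjusted p = 0.00686), whereas ATF7IP had the lower values given above. TRIM24, a relative of TRIM28, had 25.9 ± 0.729 CPM in siNC and 34.6 ± 3.34 CPM in siTRIM28 (log2FC 0.42, adjusted p = 0.00106), and TRIM33, of the same subfamily, was not called (log2FC -0.09, adjusted p = 0.417). HP1BP3, a chromatin protein that binds HP1, had a log2FC of 0.29 (adjusted p = 0.000269), SMCHD1 of 0.21 (adjusted p = 0.00492) and CHAF1A, the large subunit of the CAF-1 histone chaperone, of 0.16 (adjusted p = 0.0165). The CHAF1A call was lost with DESeq2 (adjusted p = 0.0750), without siNC replicate 2 (0.110) and with the closest libraries summed (0.0861), and that of SMCHD1 with the latter alone (0.0691).

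The remaining genes of the list that methylate lysine 9 of histone H3 were not called. SUV39H1 had a log2FC of 0.06 (95% interval from -0.32 to 0.44), SUV39H2 of -0.07 and SETDB2 of -0.25 (adjusted p = 0.0996). TASOR2, the paralogue of TASOR, was not called either (log2FC -0.05, adjusted p = 0.562).

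**Figure D5:**
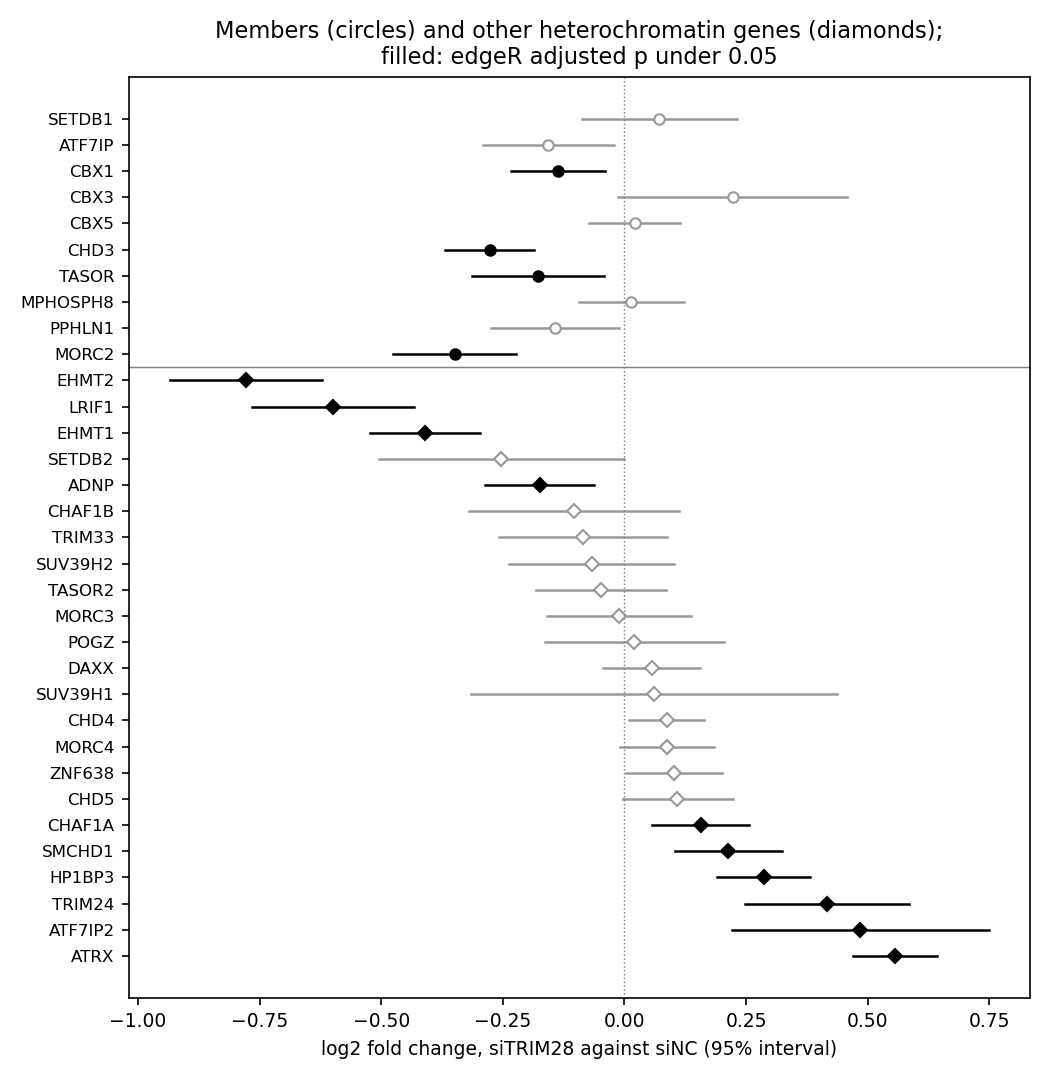
Log2FC, siTRIM28 against siNC, with 95% intervals from edgeR (horizontal axis) for the 10 genes (circles, top) and for 23 other heterochromatin genes (diamonds). Filled symbols have an adjusted p under 0.05, which holds for MORC2, CHD3, TASOR and CBX1 among the 10, all lower, and for 4 lower and 6 higher genes among the others.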

How the data were processed

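Gene-level read counts for 3 siNC and 3 siTRIM28 libraries of T24 cells were deposited by the authors without normalization. The submitters' processing notes name fastp 0.23.1, STAR 2.7.6a, featureCounts and GRCh38, and the annotation release, strand setting and treatment of duplicates are not given in the sources used here. The authors also deposited RPKM values of the genes they list as differentially expressed, which were not used here.

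The 18474 genes that reached 10 counts in 3 or more libraries were TMM-scaled and entered a quasi-likelihood fit of edgeR 4.0.16 in R 4.3.3 with condition as the only term, with Benjamini-Hochberg adjustment over all of them and a threshold of 0.05. SE was derived from the F statistic of the gene, and 95% intervals use the t quantile of the fit. The common biological coefficient of variation was 0.0733. RPKM was computed from the counts, the gene lengths in the table and the library totals. At these depths the rarest gene of the set has 289 counts in a library, so counting noise adds to the spread of SETDB1 more than to that of CBX1. The exact permutation tests compare 3 libraries with 3 and cannot give a p under 0.1.

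The scripts were tested on simulated data. The alternatives were DESeq2 1.42.0, limma-voom (limma 3.58.1), scaling by RLE, by the upper quartile or by total counts, no count filter or 10 counts in every library, a block for the replicate number, leaving out single libraries, the closest libraries of each group summed, and an adjusted p under 0.01. Besides the 10 genes and TRIM28, the genes named are those that overlap one of the 10 or start head to head with it within 1000 bases and pass the filter, the called genes of the list of 24, and markers of cell types. Genes of that list that were not called were named, after their values were seen, to set them beside a paralogue or partner, and the 10 ratios of genes were chosen after the values were seen. The genes and lists were chosen with earlier results of these data known. The replicates share numbers between the groups, and the closing part gives the fit with these as a block. All 6 libraries entered the reported values, and since no source says whether replicates came from separate cultures, p-values measure only the spread between these libraries.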

Additional observations from a re-analysis of the deposited data

How the results depend on the processing

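TRIM28, MORC2 and CHD3 were called lower in all fits that were run. The count of the 10 genes called lower (4) was 2 with upper-quartile scaling, 2 with total-count scaling, 2 with DESeq2, 2 with the closest libraries summed and 2 at an adjusted p under 0.01, TASOR and CBX1 being the calls lost, and leaving out single libraries gave 2 to 6. The count called higher (0) was 1 without a count filter and 1 with the replicate block, CBX3 in both, and 0 to 1 when single libraries were left out. The count of related genes called higher (6) was 10 with upper-quartile scaling, which moved the median log2FC of all genes from 0.02 to 0.05. The ratio of the highest to the lowest of the 10 genes in siNC was 46.1 in RPKM and 19.0 without division by length.

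Sign changes occurred in genes that were not called with all libraries. CBX5 turned to -0.009 without siNC replicate 1, and its values with 1 library left out reached 0.029. MPHOSPH8 turned to -0.004 without siNC replicate 1, to -0.02 without siTRIM28 replicate 2 and to -0.011 with the closest libraries summed, and reached 0.05 with 1 library left out. NAA38 turned to -0.02 without siNC replicate 3 and -0.20 without siTRIM28 replicate 1, where it was called lower (edgeR, adjusted p = 0.0260), and reached 0.12 without siTRIM28 replicate 2. ENSG00000257376 turned to 0.17 without siNC replicate 2 and 0.05 without siTRIM28 replicate 3, and was lowest at -0.271 without siTRIM28 replicate 2. The cause was not tested.

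With the replicate number as a block, 7910 genes were called against 7723 without it. CBX3 then had a log2FC of 0.20 (edgeR, adjusted p = 0.0488) and YAF2 of -0.19 (adjusted p = 0.0420), and no other named gene changed its call. Same-numbered libraries had correlations of 0.0523, -0.0118 and 0.0374 between their deviations from the group means. The first of these was the highest of all pairs between the groups, while siTRIM28 replicate 2 correlated better with siNC replicate 3 (0.0387) than with its own number. Correlations this small cannot show whether the shared numbers mark a pairing. DESeq2 called 5878 genes, and 5393 passed an adjusted p under 0.01. With 3 libraries a group, the 95% intervals leave room for log2 differences of up to 0.11 for CBX5 and 0.46 for CBX3.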
